A study of Mus musculus with 4 samples.

Results

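The imprinted locus of Airn and Igf2r on mouse chromosome 17 was examined in a map of RNAs that crosslink to DHX9, a helicase known for opening RNA duplexes. The locus was taken as the joint span of the 2 genes in the assembly mm10, chr17:12682406-12859884, and its members were the peaks whose midpoint lay within it. They numbered 196 of the 43106 peaks of the series (0.455%) and 10.4% of the 1884 peaks of chromosome 17. The locus was chosen by its peak counts in this same list, so its counts and positions are given as a description, with no test. The peaks came from FLASH, a method that crosslinks proteins to RNA with ultraviolet light, isolates the protein on antibody-coated beads and sequences the attached RNA in a strand-specific way. The cells were neural progenitor cells differentiated from the male mouse ES cell line WT26 (strain C57BL/6x129sV) and kept in medium with EGF and FGF2 (10 ng/ml each), after 7 days in N2B27 medium at the start of differentiation. The DHX9-Rb group (rabbit antibody to DHX9) and the IgG-Rb group (rabbit immunoglobulin as background) each had 2 biological replicates, A and B, of the same untreated cells. All 4 libraries led to 1 list of peaks with positions and strands only. Neither depth nor replicate error is therefore known for any value below, and reads of the maternal and paternal alleles were not told apart. The cells are of 1 line, and a peak count cannot separate binding from the amount of RNA, nor fewer cells with an RNA from less RNA per cell.

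Airn is a long noncoding RNA transcribed from the plus strand, starting within an intron of Igf2r and running through and past the Igf2r promoter. Igf2r, on the minus strand, encodes the cation-independent mannose 6-phosphate receptor, which carries lysosomal enzymes and takes the growth factor IGF2 to the lysosome. As textbook background, Airn is made from the paternal allele, where its transcription across the Igf2r promoter silences Igf2r, while the maternal allele makes Igf2r and no Airn. In neurons Airn is not made and Igf2r is expressed from both alleles, whereas dividing and glial cells keep the imprint.

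The start regions of both genes are shown because the peaks begin just after the first and lie over the second. Sequences are from RefSeq, assembly GRCm38.p6 (mm10), and both genes were found in its promoter table. The Airn window runs from 250 bases before to 50 bases after the annotated start (chr17:12741061-12741360, plus strand), and capitals mark each CpG. The Igf2r stretch is the 250 bases before its annotated start (chr17:12769707-12769956, minus strand, read in the direction of Igf2r), and capitals mark the bases that lie under a plus-strand peak. The last line is that same peak as Airn RNA would read it (chr17:12769761-12769862, plus strand), with each CpG in capitals.
Airn start: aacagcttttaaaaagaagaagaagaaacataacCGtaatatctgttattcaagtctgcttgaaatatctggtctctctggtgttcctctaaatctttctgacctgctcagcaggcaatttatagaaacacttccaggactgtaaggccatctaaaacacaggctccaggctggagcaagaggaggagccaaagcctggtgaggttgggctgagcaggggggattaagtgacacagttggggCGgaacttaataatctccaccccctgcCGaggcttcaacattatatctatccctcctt
Igf2r upstream: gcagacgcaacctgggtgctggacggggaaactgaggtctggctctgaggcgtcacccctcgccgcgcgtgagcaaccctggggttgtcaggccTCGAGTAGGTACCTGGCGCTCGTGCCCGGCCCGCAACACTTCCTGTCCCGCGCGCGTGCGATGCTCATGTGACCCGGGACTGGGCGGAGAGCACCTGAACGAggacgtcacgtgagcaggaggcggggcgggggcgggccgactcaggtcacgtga
Airn peak over Igf2r upstream: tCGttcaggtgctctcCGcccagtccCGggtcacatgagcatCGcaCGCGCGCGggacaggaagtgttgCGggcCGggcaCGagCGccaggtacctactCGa

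Plus-strand peaks filled Airn, and almost nothing was called on the strand of Igf2r. Both genes held a peak midpoint, where 9.58% of the 49980 genes with a chromosome in the RefSeq table did (18.9% of protein-coding and 3.29% of long noncoding genes). Airn (chr17:12741311-12859884, a span of 118.6 kb) held 195 plus-strand peaks and 0 minus-strand peaks. Igf2r (chr17:12682406-12769706, a span of 87.3 kb) held 68 plus-strand peaks, all of them in the 28.4 kb that Airn also covers, and 1 peak on its own minus strand. In the 58.9 kb of Igf2r that Airn does not cover, the plus strand had 0 peaks. The plus-strand signal thus began at the annotated start of Airn and not before it.

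Outside overlaps of genes of known strand, nearly all peaks in such genes lay on the strand of their gene. Among 31079 peaks of the series that lay in exactly 1 gene of known strand, 30915 (99.5%) were on that gene's strand. This share leaves out peaks in overlapping genes of known strand, among them the 68 that Igf2r shares with Airn. Of the 840 protein-coding genes of known strand with 10 or more peaks in their span, 7 (0.833%) had over 90% of them on the opposite strand. Igf2r was one of the 7 and had the most such peaks, 68 of 69. Next came the homeobox gene Zfhx2 and the RNA-binding protein gene Rbm4b, each with 22 of 22. Rbm4b lies within the span of Gm21992, a gene on the opposite strand with 93 peaks on its own strand. The 22 peaks of Rbm4b are therefore also peaks on the strand of Gm21992.

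**Figure D1:**
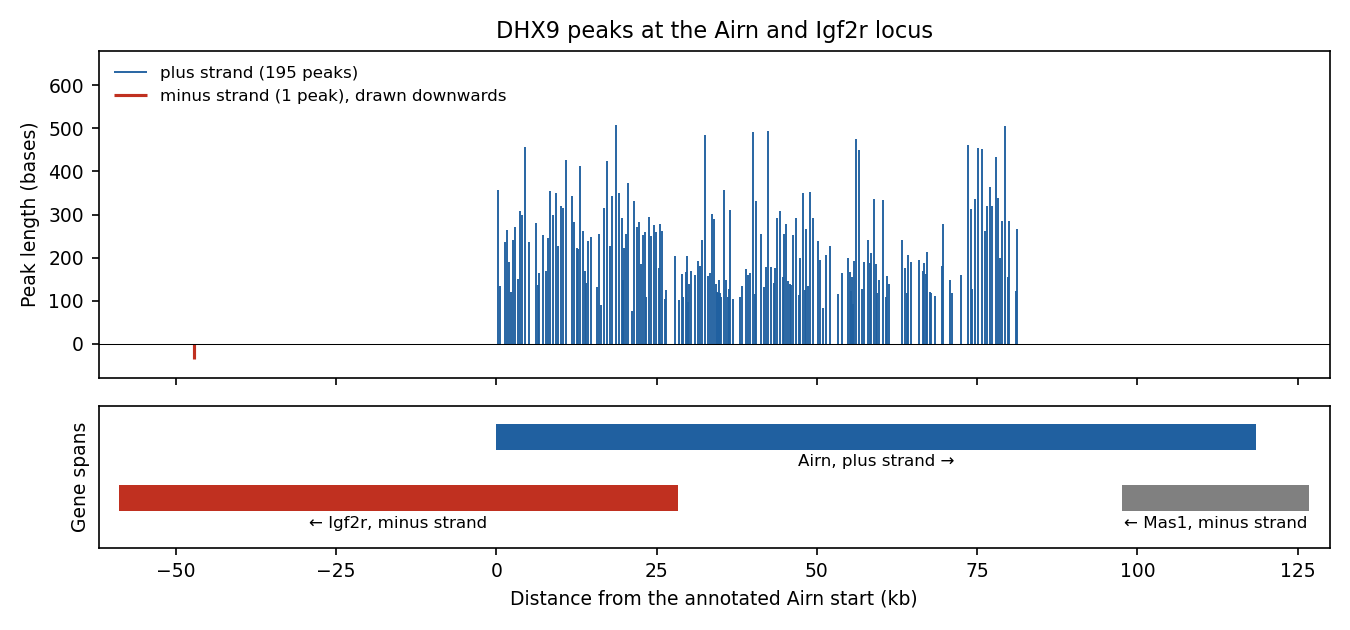
Length of each DHX9 peak (vertical axis, bases) against its distance from the annotated Airn start (horizontal axis, kb), with the plus strand upwards, the minus strand downwards and the gene spans drawn to scale below. The 195 plus-strand peaks lie between 0.158 and 81.4 kb from the start, and the single minus-strand peak lies 47.1 kb before it.

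The first peak of Airn was among its longer ones and lay directly downstream of the start. It ran over 356 bases (chr17:12741469-12741824) and began 158 bases after the annotated start. The promoter window printed above therefore held no peak on either strand. That window has 3 CpG and a GC content of 45.7%, and 76.7% of the 32817 promoter windows of RefSeq have as many CpG or more. The window of Igf2r, in contrast, has 34 CpG and a GC content of 70.7%, and 7.73% of promoter windows have as many or more CpG.

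The Igf2r promoter was covered by a plus-strand peak. Of all promoter windows, 50 (0.152%) lay under a peak of the opposite strand by at least 1 base, and 99 (0.302%) under one of the same strand. The peak over the Igf2r promoter (chr17:12769761-12769862) lay from 55 to 156 bases upstream of the Igf2r start and 28.5 kb from the Airn start, with 68 Airn peaks before it. It was short: at 102 bases, 5 of the 195 Airn peaks were shorter. Its 102 bases hold 13 CpG at a GC content of 67.6%. Within 1 kb on either side of the Igf2r start there were 4 peaks, over 28.8% of the bases, and within 5 kb there were 25, over 49.2%. From the Airn start to its last peak, 54.5% of the bases lay under a peak.

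Along Airn the peaks ran without a long break for about 80 kb and then stopped. Counted in bins of 10 kb from the start, the first 6 bins held 23, 25, 26, 28, 28 and 24 peaks. The next bins, from 60 to 70 kb and from 70 to 80 kb, held 19 and 20. The bin from 80 to 90 kb held 2, and the last 3 bins held 0. The share of bases under a peak ranged from 48.3% to 66.1% in the first 6 bins, was 34.0% from 60 to 70 kb and returned to 59.3% from 70 to 80 kb. Finer bins varied more: in bins of 5 kb up to 80 kb the count ran from 7 (70 to 75 kb) to 16, and the share of bases under a peak from 27.9% (50 to 55 kb) to 82.6% (75 to 80 kb).

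**Figure D2:**
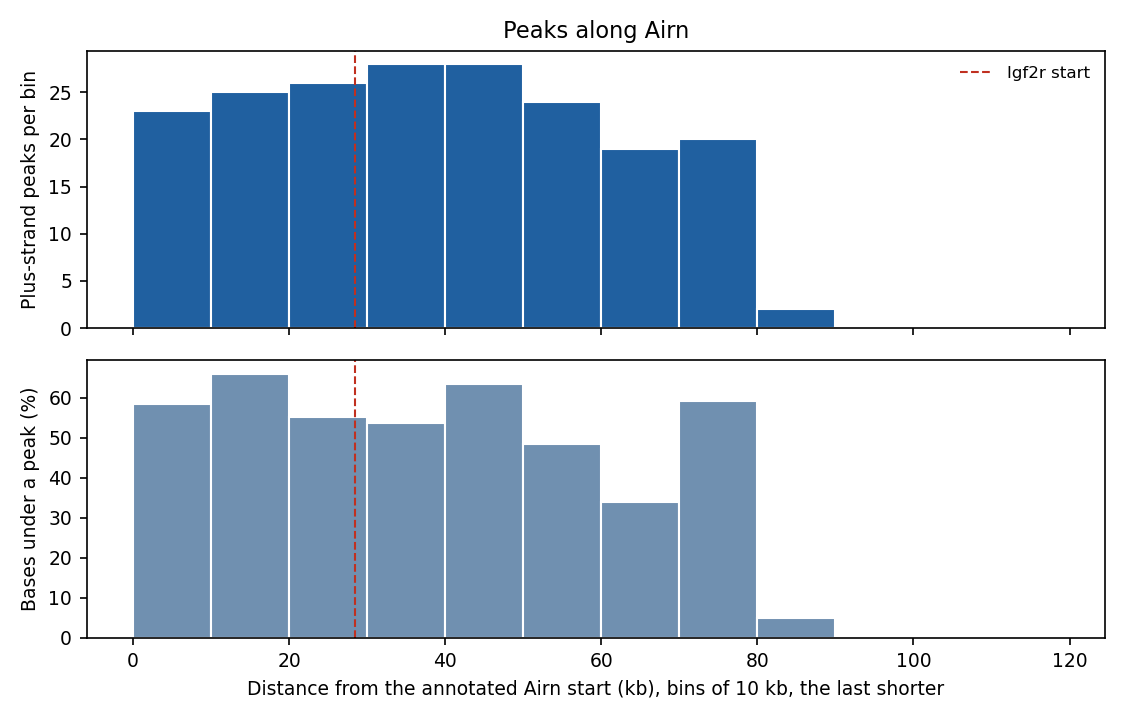
Plus-strand peaks per 10 kb bin (top) and the share of bases under a peak in percent (bottom) against distance from the Airn start in kb, with a dashed line at the Igf2r start, 28.4 kb away. Counts stay between 19 and 28 up to 80 kb, then fall to 2 and to 0.

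The last peak (chr17:12822469-12822734, 266 bases) ended 81.4 kb from the start. The remaining 37.2 kb of annotated Airn, 31.3% of its span, had no peak on either strand. The receptor gene Mas1, on the minus strand, overlaps this empty part. The edge of its span nearest to the last Airn peak, which is its 3' end, lies 16.1 kb past that peak; Mas1 had 0 peaks itself, and its start lies beyond the annotated end of Airn. RefSeq lists 4 transcripts for Airn, and the span used here is their union. Which of them the cells made was not measured.

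Because of the empty end, the density of peaks depended on where Airn was taken to stop. Within the Igf2r overlap there were 2.39 peaks per kb, and in the rest of the annotated Airn (127 peaks over 90.2 kb) 1.41 per kb, a ratio of 1.70. With the rest counted only to the end of the last peak (53.0 kb), a limit chosen after seeing the data, its density was also 2.39 per kb and the ratio 1.00. With the peaks as listed, the stretch antisense to Igf2r and the stretch beyond it thus carried the same mean density up to the last peak. With this limit, the ratio was not computed for merged peaks or for longer peaks alone. The overlap held 34.9% of the Airn peaks as listed. It held 39.7% of those at least as long as the list's median and 39.1% after merging peaks 50 bases or less apart. A larger share over the same 2 stretches means a ratio above 1.00, so the equal density holds only for the peaks as listed.

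The peaks within Igf2r were longer. Their median length was 254 bases (middle part, from the 25th to the 75th percentile, 189 to 302) against 179 bases (137 to 278) for Airn beyond Igf2r. They covered 60.3% of the overlap. In the rest of annotated Airn, which includes the 37.2 kb without a peak, cover was 30.2%. From the Airn start to its last peak, a stretch that includes the overlap, it was 54.5%. Beyond Igf2r alone, peaks covered 27211 bases of the 53.0 kb up to the last peak. Over all of Airn the median length was 204 bases, where the whole list had 153. Peaks of at least 300 bases made up 22.1% of the Airn peaks and 7.22% of all peaks. Long peaks also gathered near the far end: the median was 317 bases between 70 and 80 kb, the highest of the 10 kb bins with a peak, and 159 bases between 30 and 40 kb, the lowest. The longest peak, of 508 bases, began 18.4 kb from the start (chr17:12759687-12760194). The shortest, of 76 bases, began at 21.2 kb (chr17:12762468-12762543).

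**Figure D3:**
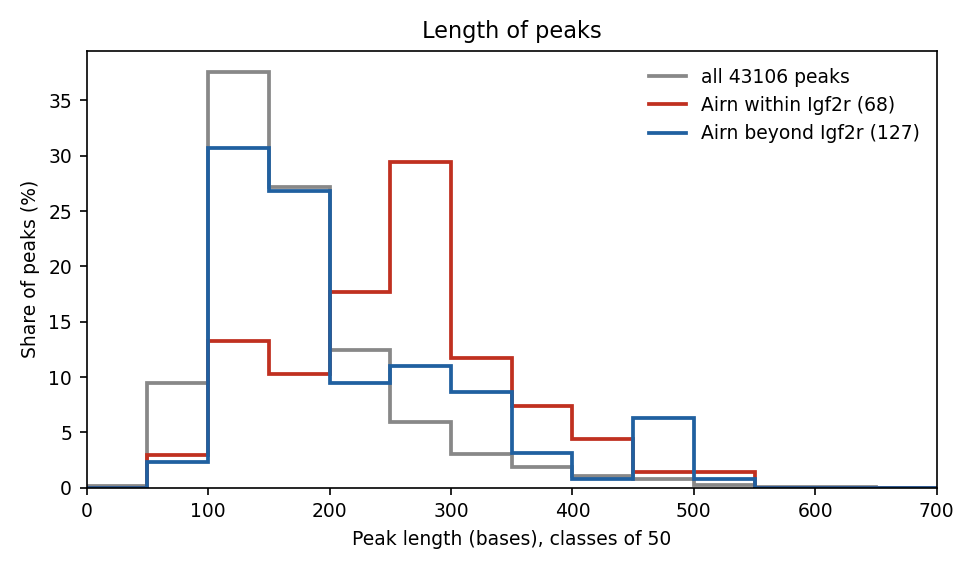
Share of peaks (percent) by length in classes of 50 bases, for all 43106 peaks, the 68 Airn peaks within Igf2r and the 127 beyond it. The peaks within Igf2r are most common between 250 and 300 bases, while both other groups are most common between 100 and 150.

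Gaps between Airn peaks were short. The midpoints of neighbouring peaks were 354 bases apart in the median (25th to 75th percentile, 267 to 466), with 362 within Igf2r and 351 beyond it. Measured from edge to edge, the median gap was 107 bases, and 92 of 194 gaps were under 100 bases. A pair of neighbours overlapped in 2 cases, and in 2 others they touched. The longest run of peaks with gaps under 100 bases had 8 peaks in 2.04 kb, from 54.8 to 56.9 kb.

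Only 5 gaps between the peaks reached 1000 bases. The largest, of 1858 bases, lay from 61.3 to 63.1 kb, between peaks of 140 and 240 bases. The next, of 1224 bases, lay from 26.5 to 27.7 kb, shortly before the Igf2r start. It was bounded by peaks of 124 and 203 bases. The gap after these in size, of 1173 bases, lay from 71.2 to 72.4 kb, between peaks of 118 and 160 bases. Of these 5 gaps, 4 lay beyond 50 kb from the start.

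A pair of pseudogenes sits near the far end of the filled part, Gm16574 with 1 Airn peak in its span and Gm7162 with 3. Reads from pseudogenes can map to several places, and how the authors handled such reads is not given in the sources used here.

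The one peak on the strand of Igf2r lay at chr17:12694189-12694224. It was 75.5 kb downstream of the Igf2r start and 11.8 kb before its annotated end. At 36 bases it was among the 50 shortest peaks of the list (0.116% were as short or shorter). Among protein-coding genes of known strand, 18.4% had at least 1 peak on their own strand. Whether Igf2r was expressed in these cells was not measured here.

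On both sides of the locus, long stretches held no peak. The peaks closest to the limits on the inside were this minus-strand peak, 11.8 kb from the lower limit, and the last Airn peak, 37.2 kb from the upper one. Outside, the nearest below was a plus-strand peak of 131 bases in Agpat4, an acyltransferase gene, 524.4 kb away. The nearest above was a plus-strand peak of 162 bases, 57.5 kb away, where Tcp1, a chaperonin subunit gene on the plus strand, overlaps the ribosomal protein gene Mrpl18 on the minus strand. No peak lies close to a limit, so moving the limits by a few kb would change no count.

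Of the genes listed as neighbours, 5 of the 14 in the RefSeq table had a peak, where 18.9% of all protein-coding genes did, and the median was 0 peaks per gene. Slc22a2 and Slc22a3, transporter genes that Airn is known to silence in placenta, had 0 peaks, as did the plasminogen gene Plg. Wtap, which encodes a subunit of the RNA N6-methyladenosine writer, had 23 peaks on its own strand, and Acat2, a thiolase gene, had 9. Tcp1 had 2, and the same 2 were those counted for Mrpl18, on whose strand there was none. Agpat4 had 1.

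Compared with other heavily bound genes, Airn combined dense cover with a long stretch past its last peak. A count of at least 50 peaks on a single strand was reached by 146 genes of the table, 8 of them long noncoding (0.0629% of such genes). Apart from Airn and Igf2r, 144 were left, some of which are nested and share peaks. Peaks covered 37.4% of Airn, and 8 of the 144 were covered more; the median was 11.4%. Past the last peak lay 31.3% of Airn, and 7 of the 144 had a larger empty share; the median was 4.17%. None of the 144 reached Airn in both measures. This pair of measures was not planned beforehand, and Airn was chosen by its peak counts in this same list. The 8 more densely covered genes had empty ends of at most 1.43% of their span, and the 7 with longer empty ends had at most 9.54% of their span under peaks. The empty share is set by the last peak alone, so a few far peaks can make it small. Zeb1, described below, had 34.4% of its span covered and 1.01% past its last peak. Yet a share of at most 0.0627 of its peaks lay past the relative position of the last Airn peak. For median peak length, 1 of the 144 was above Airn, the chromatin remodeller gene Arid1a with 235.5 bases. The largest gap within Airn, 1.86 kb, was smaller than that of 139 of the 144 genes, whose median was 20.4 kb. The 144 genes had a median of 0.647 peaks per kb, against 1.64 in Airn. The rank by largest gap was not adjusted for density or span.

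**Figure D4:**
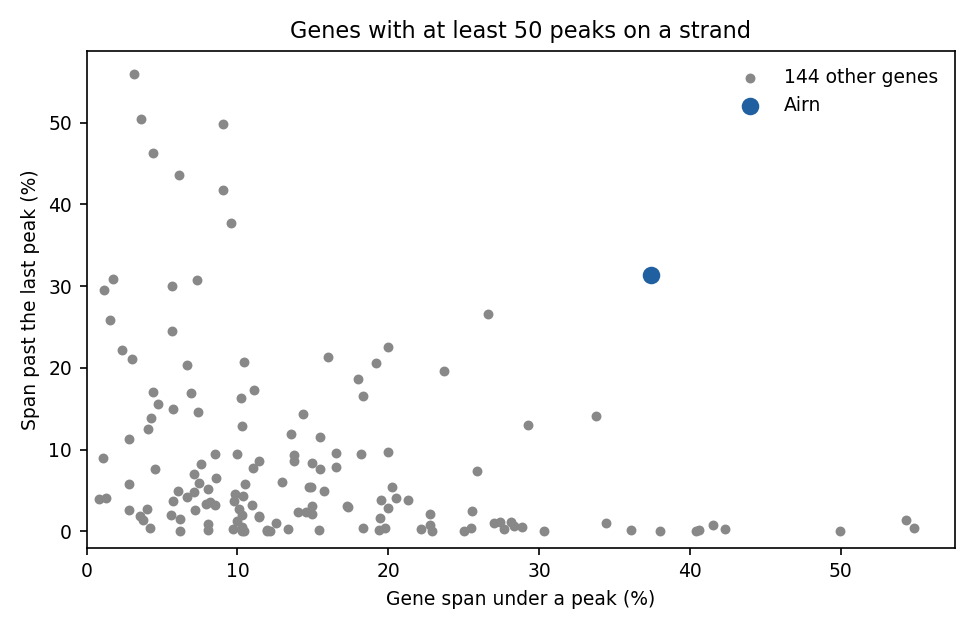
Share of the gene span past the last peak (vertical axis, percent) against the share of the span under a peak (horizontal axis, percent) for Airn and 144 other genes with at least 50 peaks on a strand. Airn, at 37.4% and 31.3%, has no other gene above and to the right of it.

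Genes were also ranked by how their peaks are placed along the gene, using the largest difference between the cumulative shares of peaks from the 5' end. Among 97 genes of 50 to 300 kb with at least 50 peaks, the transcription factor gene Zeb1 was the most like Airn, with a largest difference of 0.0627. Next came the transcription factor gene Gtf2i (0.0849), Rai1 (0.103), the membrane glycoprotein gene Gpm6a (0.117) and the potassium channel gene Kcnd3 (0.132). Zeb1 also had like values for the spacing of midpoints (median 355 bases) and for peak length (198 bases). It differed in its largest gap, 35.6 kb, and in the place of its last peak, past which 1.01% of the span lay. Few Zeb1 peaks made this difference at the end. By the largest difference, a share of at most 0.0627 of them lay past the relative position of the last Airn peak.

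**Figure D5:**
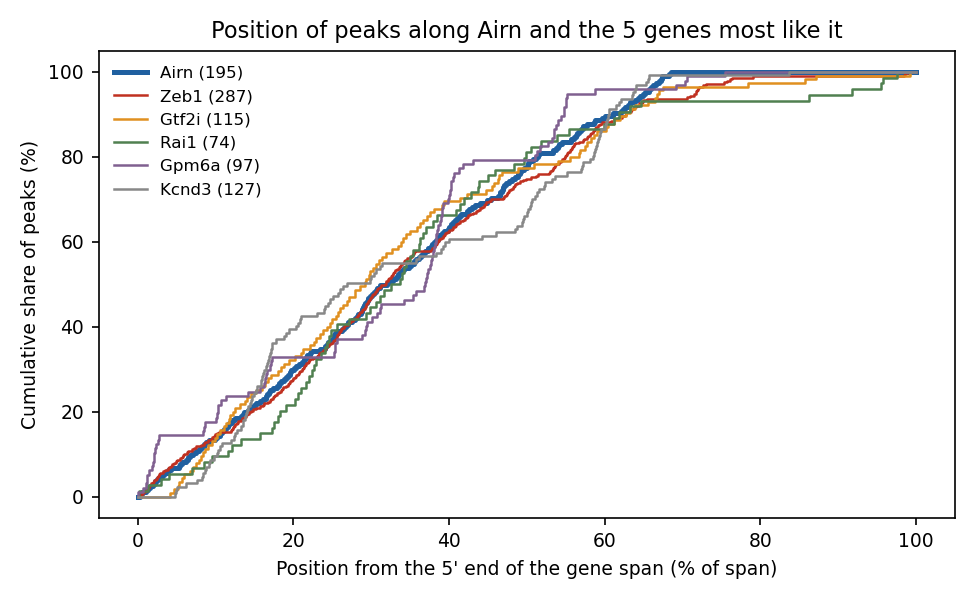
Cumulative share of peaks (percent) against position from the 5' end (percent of the gene span) for Airn (195 peaks) and the 5 genes most like it by this curve. The Airn curve is complete where 31.3% of the span is left.

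Among other imprinted noncoding RNAs, none came near this count. Kcnq1ot1, which silences a cluster on chromosome 7 and lies antisense within Kcnq1, had 44 peaks on its own minus strand (0.527 per kb, 10.2% of 83.4 kb covered). It too began soon after its start, at 0.686 kb, and ended early, with 57.9% of the span past the last peak. Its largest gap was 7.96 kb. H19, a short RNA next to Igf2, had 6 peaks over 2.62 kb. Its density, 2.29 per kb, and its cover, 63.0%, were above those of the whole Airn span (1.64 per kb and 37.4%). Snhg14, host of small nucleolar RNAs antisense to Ube3a, had 8 over 1177 kb. Meg3 had 1 and Peg13 had 0. In the list of imprinted noncoding RNAs and genes beside them, 12 of the 19 genes in the table had a peak, with a median of 2 per gene, where 18.9% of protein-coding and 3.29% of long noncoding genes in the table did (the list holds both kinds); those with the most, apart from Airn, were Kcnq1ot1 and Kcnq1 (the same 44), Gnas (23 minus-strand and 18 plus-strand) and Mest (14).

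In the pathway of the receptor, Igf2r had 0.0115 peaks per kb of span on its own strand, against 0.748 in Igf2, the highest of the other genes. On its antisense strand Igf2r had 0.779 per kb. Those peaks all lay where Airn overlaps it, and the locus was chosen by its peak counts, so that value does not rank the receptor gene. Of 25 genes for receptors, ligands, sorting factors and cargo, 13 had a peak, Igf2r included, and the median was 1 peak per gene, where 18.9% of all protein-coding genes had a peak and their median was 0. Igf2, the ligand that Igf2r clears, had 12 peaks on its own strand. The growth-promoting receptor gene Igf1r had 9, and M6pr, the other mannose 6-phosphate receptor, had 0. The most, after the antisense peaks of Igf2r, lay in the clathrin adaptor gene Ap1g1 (21) and the clathrin heavy chain gene Cltc (15).

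Of 17 genes for factors known for silencing by Airn or for the imprint, 12 had a peak, with a median of 6, where 18.9% of all protein-coding genes had one and their median was 0. Those with the most were the DNA methyltransferase gene Dnmt3a (63), Ehmt1 (53), which encodes the partner of the histone methyltransferase that Airn recruits in placenta, the Polycomb subunit gene Suz12 (23) and the zinc finger gene Zfp445 (16). Ehmt2, which encodes that methyltransferase, had 6.

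As a check of the labelled cell type, which peaks can give only in part, 5 of 12 neural progenitor markers had a peak, led by Slc1a3 (122), Ptprz1 (64), Notch1 (21) and Fabp7 (4), against 18.9% of all protein-coding genes. Sox2, Pax6 and Nes, which define such cells, had 0. Of 8 neuron markers only Map2 had peaks (46), and none of 7 pluripotency markers had one. With 18.9% of protein-coding genes carrying a peak, lists this short say little about which other cells were present.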

How the data were processed

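Sample titles gave the groups. A single list of peaks was deposited, called with PEAKachu per the file itself, with a chromosome, start, end and strand for each peak and no score. Bowtie2 2.2.6 and the builds hg19 and mm10 are named in the submitters' processing notes; the caller's settings and threshold, and the handling of duplicates and of reads that map to several places, are not given in the sources used here. Where 1 broad signal is reported as several peaks, counts and spacing depend on that unknown setting. Depth per library is unknown.

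Positions were read as mm10, 1-based. Gene spans came from a RefSeq table of GRCm38.p6, and strands from its promoter table, for 27025 of 49980 genes. A peak belonged to every span that held its midpoint; cover counted each base once. The measures were tested on simulated data (Python 3.11.15, pandas 2.3.3). No test was run, since regions of 1 list are not replicates. The members and lists were chosen with earlier results of these data known. Named genes were Airn and Igf2r, neighbours with a peak, up to 4 members of each list with the most peaks, the imprinted RNAs set side by side and the 5 genes most like Airn by position; genes named for having few or no peaks, for antisense peaks, for peak length, and Ehmt2 and Igf1r, were chosen after their values were seen. Exons, peak sequences outside promoter windows and repeats were not analysed here.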

Additional observations from a re-analysis of the deposited data

How the results depend on the processing

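No paired analysis was possible because all 4 libraries led to 1 list, and for the same reason no replicate was left out. Counting any overlap of at least 1 base, or only whole peaks inside a span, changed none of the 6 values for number, overlap share, spacing, cover, length and density ratio. With the shorter peaks, those under the list's median length, left out (141 at the locus remained), spacing went from 354 to 418 bases, cover from 37.4% to 31.9% and median length from 204 to 254 bases, by construction. Merging peaks 50 bases or less apart (133 left) gave 515 bases, 38.6% and 263 bases. These settings gave a density ratio of 2.09 and 2.04. With the peaks as listed and Airn ended at its last peak, chosen after seeing the data, the ratio was 1.00 and cover 54.5%. That limit was not combined with the other settings. Bins without a peak numbered 3 at 10 kb, 7 at 5 kb and 1 at 20 kb.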

Other observations

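Igf2r was not the only imprinted gene with an antisense peak over an annotated start. At the Gnas locus, which also makes an imprinted antisense RNA, a promoter window (chr2:174284070-174284369, plus strand) lay under 2 minus-strand peaks and 0 plus-strand peaks. This window covers the outermost 5' start of the annotated Gnas span. Whether the G protein subunit encoded by Gnas is made from this start was not examined. The window holds 16 CpG at a GC content of 61.0%. Over the 50 promoter windows under a peak of the opposite strand, Igf2r included, the median was 11 CpG and a GC content of 56.3%, where all 32817 windows had medians of 7 and 52.7%. Some of these windows belong to the same gene, and Gnas was chosen after its values were seen.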
